A study of Mus musculus with 9 samples.

Results

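The AP-1 transcription factor genes described here are 10 genes chosen by their symbols, as members of the FOS, JUN, BATF and small MAF families: Fos, Fosb, Fosl1, Fosl2, Jun, Junb, Jund, Batf, Maff and Mafk. All 10 were found among the 55906 genes of the deposited expression table, and 8 of them were among the 11260 genes with enough signal to be tested (a level of 1 TPM or more in 3 or more libraries; TPM is a share of the RNA of a library, scaled by transcript length). Each of those 8 reached 1 TPM in all 9 libraries, so none was admitted through 1 group alone, and Fosb and Batf stayed below the limit. The study measured RNA from BV2, a mouse microglial cell line labelled wildtype, in 3 groups of 3 libraries: cells with no treatment (Control), cells given lipopolysaccharide, a component of the outer membrane of Gram-negative bacteria (LPS), and cells given LPS together with an agent labelled Pilo (LPS+Pilo). The labels hold no dose, no time and no full name for Pilo, there was no group with Pilo alone, and all libraries came from 1 cell line. The libraries are labelled biological replicates without a statement on separate cultures, so the p-values measure the spread between these libraries.

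AP-1 is a family of dimeric factors built from basic leucine zipper proteins, in which a leucine zipper holds a pair of subunits together and a basic region contacts DNA. JUN proteins pair with each other or with FOS proteins, whereas FOS proteins need a partner from another family, such as JUN. BATF pairs with JUN proteins but has no activation domain of its own. The small MAF proteins MAFF and MAFK, which also lack one, pair with each other, with FOS proteins or with cap'n'collar factors such as NRF2. In macrophages and microglia, LPS sensed by TLR4 activates MAP kinases that act on existing JUN and ATF proteins and on the promoters of FOS and JUN genes. Fos, Fosb and Jun are classical immediate-early genes, with brief transcription after a stimulus, while FOSL1 and FOSL2 (FRA-1 and FRA-2) are known as later and longer-lived members.

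In the whole data set, between 10726 and 11123 genes reached 1 TPM per library, and no table of counts was used, so sequencing depth was unknown. Of 12 microglia and macrophage markers 11 were tested, and their summed level ran from 4008 to 4113 TPM in Control, 3304 to 3477 under LPS and 3037 to 3152 with Pilo added; P2ry12 reached no more than 0.40 TPM and Aif1 no more than 1.36 TPM. Of 6 neuronal markers 5 were listed at 0 in all libraries, and astrocyte, endothelial and fibroblast markers summed to at most 0.36 TPM in any library. The oligodendrocyte list summed to 4.02 to 6.76 TPM, nearly all of it Mbp, and Mbp did not pass in any comparison. The lymphocyte list reached 3.10 TPM in 1 Control library, from Cd3d, and at most 0.11 TPM in the treated libraries. With LPS the microglial list had no common direction. In it 1 marker was higher (Itgam, 1.58), 2 were lower (Tyrobp, -0.50, and Trem2, -0.83) and 8 did not pass, where 4.12% of all genes were higher and 3.64% lower. The abundant Tyrobp, Trem2 and Cd68 carried most of the lower sum. In LPS+Pilo with Control 1 was higher and 4 were lower, beside 4.85% and 5.3% of all genes. In LPS+Pilo with LPS 0 passed, beside 0.0444% of all genes, with a median of -0.18 against -0.05 over all genes. An unadjusted p under 0.05 (limma) was reached there by 5 of the 11, all lower, and by 6.76% of all genes. The part of these shifts in the AP-1 values was not tested.

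In Control the genes spanned more than 3 orders of magnitude on the TPM scale. Jund, which encodes the JUN protein most abundant in resting cells of many types, led with 283.83, 254.49 and 303.72 TPM in replicates 1, 2 and 3. Junb followed with a mean of 72.5 ± 4.88 TPM (SD, n = 3 here and for all group means), then Jun with 18.8 ± 2.91, Maff with 13.1 ± 0.331 and Mafk with 7.97 ± 0.667 TPM. These 5 were each separated from their neighbours in the order, with no overlap of replicates. Fosl1 (4.09 ± 0.884 TPM), Fosl2 (3.82 ± 0.532) and Fos (2.94 ± 1.31) overlapped with their neighbours in this order. Batf (0.177 ± 0.144 TPM) and Fosb (0.0933 ± 0.0473) were close to 0 and overlapped each other. Of a summed AP-1 level of 404 TPM in Control, the JUN family made up 372 TPM and the FOS family 10.9 TPM.

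**Figure D1:**
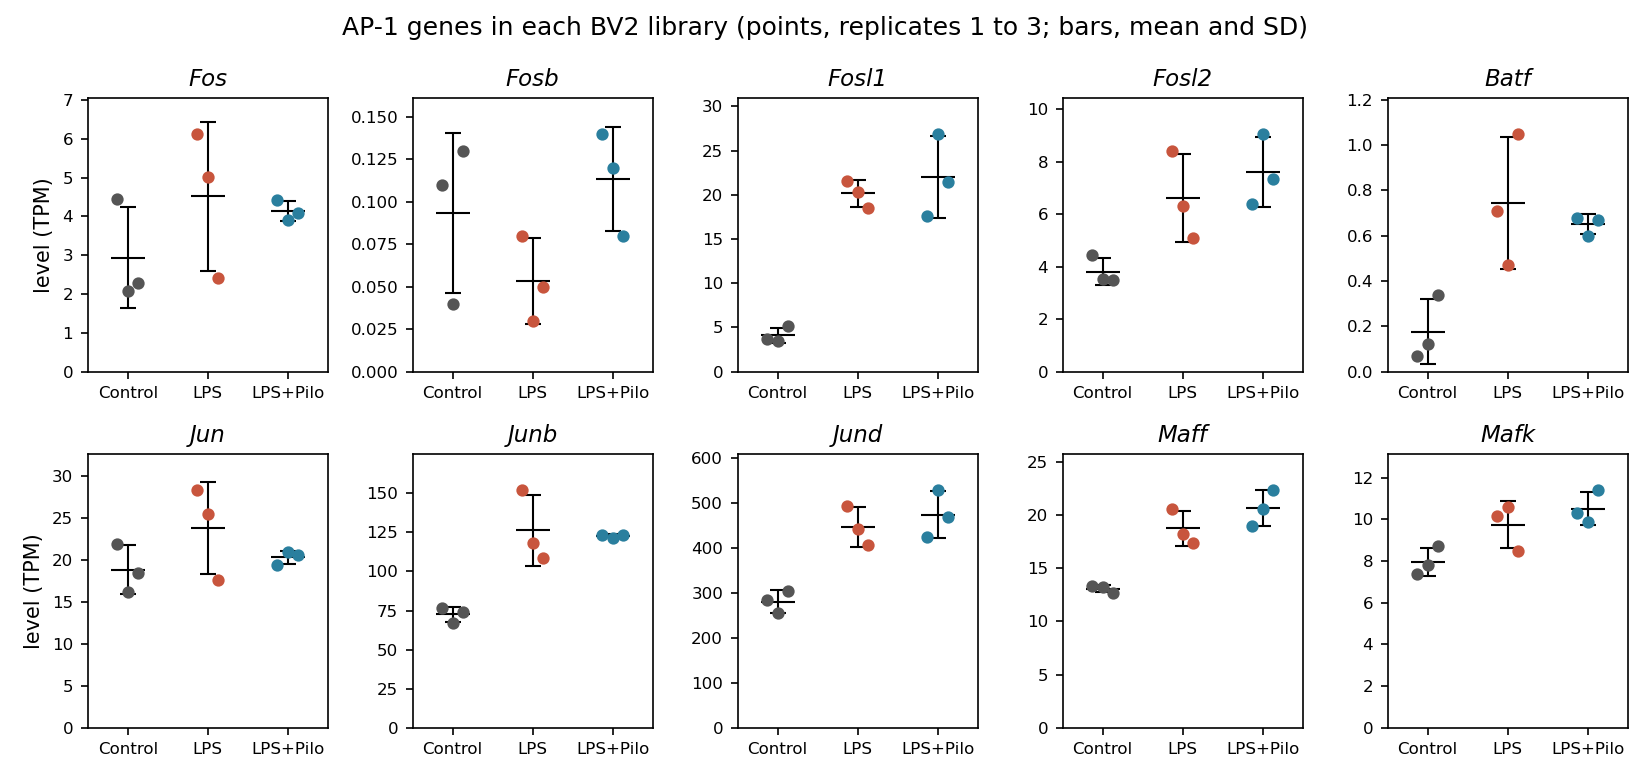
Level in TPM (vertical axes, each starting at 0 with its own scale) of the 10 genes in Control, LPS and LPS+Pilo; points are replicates 1, 2 and 3 from left to right, and bars give the mean and SD. Fosl1 sits at 3.51 to 5.11 TPM in Control and at 17.65 TPM or more in all 6 treated libraries, whereas Fos and Jun overlap between all groups.

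The first comparison asked how LPS changed these genes. Of the 8 tested, Fosl1, Junb, Jund and Maff rose with LPS, 0 fell, and Fos, Fosl2, Jun and Mafk did not pass (limma on log2(TPM + 1), Benjamini-Hochberg adjusted p under 0.05). Among all 11260 genes 7.76% were called in this comparison, 4.12% as higher and 3.64% as lower. An unadjusted p under 0.05 was reached by 5 of the 8 and by 22.7% of all genes, and the libraries of the groups did not overlap in 5 of the 8 and in 24.2% of all genes. The median log2 fold change was 0.56 over the 8 members and 0.07 over all genes tested. All 8 estimates were above 0, also in each of the 16 alternative settings, which reuse the same libraries. Among all genes tested 41.1% had an estimate below 0. In bulk RNA, fewer expressing cells and less RNA per cell cannot be told apart. The share of all genes called depended on single libraries: the 874 genes became 552 when Control replicate 2 was left out, 414 for Control replicate 3, 507 for LPS replicate 1 and 466 for LPS replicate 2, and the 464 higher and 410 lower genes became 614 and 902 under quantile normalization. Over the same settings the number of AP-1 genes called stayed between 3 and 5.

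Fosl1 showed the widest change of the FOS family. Its level was 3.66, 3.51 and 5.11 TPM in the Control libraries and 21.62, 20.33 and 18.55 TPM in the LPS libraries. The highest Control library lay far below the lowest LPS library, and the ratio of group means was 4.93. The log2 fold change was 2.07 ± 0.18 (SE; limma, adjusted p = 1.13e-04), which ranked 59 of the 11260 genes by size. Fosl1 stayed called in all 16 alternatives, with adjusted p from 9.56e-05 to 0.00112.

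Fosl2, which encodes FRA-2, was at 4.43, 3.54 and 3.48 TPM in Control and 8.41, 6.33 and 5.08 TPM in LPS. All LPS libraries lay above all Control libraries, with LPS replicate 3 closest to them. Its log2 fold change of 0.64 ± 0.19 did not pass (limma, adjusted p = 0.0784; unadjusted 95% interval 0.21 to 1.07). It passed without LPS replicate 3 (adjusted p = 0.0347) and with median-ratio scaling (0.0462), within a range of 0.0347 to 0.238 over the alternatives. The ratio of Fosl1 to Fosl2, which does not depend on how a library is scaled, was 0.826 to 1.47 in Control and 2.57 to 3.65 in LPS, so the ranges did not overlap; no test was made of it.

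Fos, the founding member of the family, was low and variable. It was at 4.44, 2.08 and 2.29 TPM in Control and at 6.13, 5.02 and 2.40 TPM in LPS, and the groups overlapped because Control replicate 1 exceeded LPS replicate 3. The log2 fold change of 0.47 ± 0.29 did not pass (limma, adjusted p = 0.384), and its 95% interval of -0.19 to 1.13 left room for a rise as large as that of Junb. Fosb, the other immediate-early FOS gene, was below the limit for testing: Control ran from 0.04 to 0.13 TPM, LPS from 0.03 to 0.08 and LPS+Pilo from 0.08 to 0.14, with overlapping groups.

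In the JUN family, Junb and Jund rose and Jun did not pass. Junb, whose protein is a weaker activator than JUN and can oppose it, was at 76.30, 67.01 and 74.26 TPM in Control and at 152.03, 118.34 and 108.68 TPM in LPS. No LPS library came near the Control range, and the log2 fold change was 0.78 ± 0.12 (limma, adjusted p = 0.00417; 0.00277 to 0.0233 over the alternatives). Jund was at 283.83, 254.49 and 303.72 TPM in Control and 492.90, 440.88 and 405.77 TPM in LPS, again without overlap. Its log2 fold change was 0.67 ± 0.11 (limma, adjusted p = 0.00609; 0.00578 to 0.0277 over the alternatives). By amount, Jund accounted for the largest part of the change in AP-1 RNA, from a mean of 281 to 447 TPM, although its ratio of group means (1.59) was far below that of Fosl1.

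Jun, which encodes the JUN protein whose activity is raised by JNK phosphorylation, was at 21.89, 16.11 and 18.42 TPM in Control and at 28.29, 25.39 and 17.61 TPM in LPS. LPS replicates 1 and 2 lay above the Control range and LPS replicate 3 lay inside it. The log2 fold change of 0.31 ± 0.17 did not pass (limma, adjusted p = 0.335; 95% interval -0.08 to 0.70). The ratio of Jun to Jund ran from 0.0606 to 0.0771 in Control, and under LPS from 0.0434 to 0.0576 without Pilo and 0.0395 to 0.0456 with it. Control lay above both treated groups without overlap, while the treated groups overlapped; this too was not tested.

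Of the small MAF genes, Maff rose and Mafk did not pass. Maff, described elsewhere as inducible by stress and cytokines, was at 13.34, 13.23 and 12.72 TPM in Control and at 20.61, 18.20 and 17.41 TPM in LPS, without overlap. The log2 fold change was 0.48 ± 0.11 (limma, adjusted p = 0.0267). This call was lost without Control replicate 2 (0.0727), Control replicate 3 (0.114), LPS replicate 1 (0.0971) or LPS replicate 2 (0.0783), in the fit of the 2 groups alone (0.0833) and with a replicate block (0.0546); the range over the alternatives was 0.0235 to 0.114. Mafk, its paralog, was at 7.39, 7.83 and 8.70 TPM in Control and 10.16, 10.60 and 8.48 TPM in LPS, where LPS replicate 3 fell inside the Control range. Its log2 fold change of 0.26 ± 0.13 did not pass (limma, adjusted p = 0.275; 95% interval -0.03 to 0.55), and quantile normalization lowered it to 0.15.

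Batf, best known for its role with IRF4 and JUN proteins in lymphocytes, stayed below the limit for testing. Control libraries held 0.07, 0.12 and 0.34 TPM, LPS libraries 0.71, 0.47 and 1.05 TPM and LPS+Pilo libraries 0.68, 0.60 and 0.67 TPM. The treated libraries all lay above the Control libraries, at levels where TPM rests on few reads. In a fit without the filter, which tested 21250 genes, its log2 fold change with LPS was 0.56 ± 0.13 and did not pass (limma, adjusted p = 0.0698), nor did that of LPS+Pilo with Control (0.49 ± 0.13, adjusted p = 0.0913). Of 2 IRF partners of BATF 1 was tested, Irf8, and it did not pass (-0.16 with LPS).

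Promoter sequences are shown for Fos and Jun, which did not pass with LPS, and for Junb and Maff, which rose. They come from the RefSeq promoter table (build GRCm38.p6, an earlier build than the GRCm39 of the submitters' processing notes), which matched 9 of the 10 genes; Fosl1 was not matched. Each stretch is the 150 bases before the annotated start site, written 5′ to 3′ on the strand of the gene, with capitals on matches to the AP-1 element TGAGTCA, the cAMP-response element TGACGTCA, the variant TGACATCA or the shorter TGACGT, searched on both strands (TGACGT overlaps TGACGTCA).
Fos, chr12:85473740-85473889, plus strand: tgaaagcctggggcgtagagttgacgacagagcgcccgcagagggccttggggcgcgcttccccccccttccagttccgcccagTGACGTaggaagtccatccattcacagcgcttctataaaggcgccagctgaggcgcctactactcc
Jun, chr4:95052223-95052372, minus strand: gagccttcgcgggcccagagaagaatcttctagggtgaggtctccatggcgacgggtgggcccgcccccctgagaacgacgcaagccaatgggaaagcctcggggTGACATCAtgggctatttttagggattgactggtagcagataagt
Junb, chr8:84978749-84978898, minus strand: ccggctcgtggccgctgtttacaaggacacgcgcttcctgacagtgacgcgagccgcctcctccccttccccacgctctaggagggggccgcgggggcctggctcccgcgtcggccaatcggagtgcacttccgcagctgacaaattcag
Maff, chr15:79347370-79347519, plus strand: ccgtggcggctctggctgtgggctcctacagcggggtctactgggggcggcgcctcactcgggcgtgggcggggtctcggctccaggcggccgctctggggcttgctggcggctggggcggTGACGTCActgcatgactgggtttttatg

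The Fos stretch holds TGACGT from 66 to 61 bases before the start site, and the Jun stretch holds TGACATCA from 45 to 38 bases before it, the place of an element through which JUN and ATF proteins are known to act on Jun itself. Maff has 3 annotated start sites; the stretch shown holds TGACGTCA from 29 to 22 bases before its start site, and that of another site holds TGACATCA from 45 to 38 bases before it. Batf holds TGACGT from 98 to 93 bases before its start site. The printed Junb stretch and those of Fosb, Fosl2, Jund and Mafk hold none of the 4 motifs, which says only that these letters are absent from 150 bases. Of all 32851 stretches of the same length in the table, 2.84% hold TGAGTCA, 1.36% TGACGTCA, 2.32% TGACATCA and 5.15% TGACGT. Genes with a match were found both among those that rose and among those that did not pass, and no binding was measured.

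**Figure D2:**
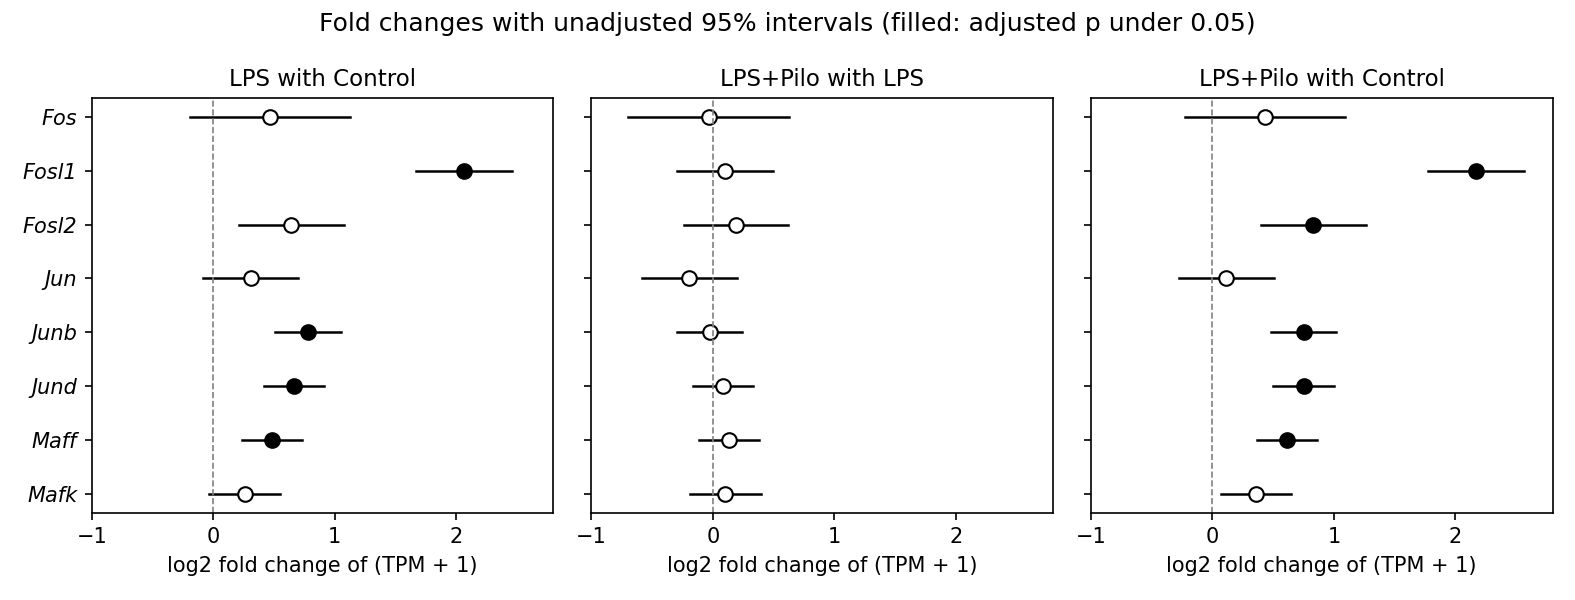
Log2 fold change of (TPM + 1) (horizontal axes) of the 8 tested genes in the 3 comparisons, with unadjusted 95% intervals; filled points have an adjusted p under 0.05. With LPS, 4 genes are filled, led by Fosl1 at 2.07; between LPS+Pilo and LPS all points lie between -0.19 and 0.19 and every interval crosses 0.

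LPS+Pilo was then set against LPS alone, for the effect of Pilo on stimulated cells. Among the 8 AP-1 genes 0 passed in either direction (limma, adjusted p from 0.875 to 0.991), and 0 had an unadjusted p under 0.05, the lowest being 0.253. In the same comparison 0.0444% of all 11260 genes were called, which is 5 genes (0.00888% higher and 0.0355% lower), and 6.76% had an unadjusted p under 0.05; the libraries did not overlap in 0 of the 8 and in 12.2% of all genes. The 5 genes became 1 when LPS replicate 1 or 2 was left out, and 0 when LPS replicate 3 or any LPS+Pilo library was. The number of AP-1 genes called was 0 in all 16 alternatives. The estimates ran from -0.19 for Jun to 0.19 for Fosl2, with a median of 0.09 over the members and -0.05 over all genes; the sign of the Fos, Fosl1 and Junb estimates changed in some alternatives (Fos from -0.35 to 0.18, Fosl1 from -0.05 to 0.24 and Junb from -0.13 to 0.11).

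The unadjusted intervals give the range of Pilo effects compatible with these libraries. They are not a limit of detection, because a larger change could also miss the adjusted threshold. For Jund, at 424.71, 528.41 and 467.57 TPM in LPS+Pilo, the log2 fold change against LPS was 0.08 ± 0.11 with a 95% interval of -0.16 to 0.33. For Junb, at 123.19, 121.57 and 123.51 TPM, it was -0.03 ± 0.12 with an interval of -0.30 to 0.24. Fosl1, at 17.65, 26.92 and 21.43 TPM, gave 0.10 ± 0.18 and an interval of -0.29 to 0.50. In each of these genes the LPS+Pilo libraries overlapped the LPS libraries. Fosl2, at 6.40, 9.07 and 7.36 TPM, gave 0.19 ± 0.19 (-0.24 to 0.62). Jun, at 19.38, 20.88 and 20.58 TPM, gave -0.19 ± 0.17 (-0.58 to 0.20). Fos, at 4.43, 3.91 and 4.09 TPM, gave -0.03 ± 0.29 (-0.70 to 0.63), the widest interval of the 8, so its estimate was the least precise. Maff, at 18.99, 20.55 and 22.36 TPM, gave 0.13 ± 0.11 (-0.11 to 0.38), and Mafk, at 10.29, 9.86 and 11.41 TPM, gave 0.10 ± 0.13 (-0.19 to 0.39).

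Set against Control, LPS+Pilo showed 5 of the 8 genes higher, 0 lower and 3 not passing, where 10.2% of all genes were called, 4.85% as higher and 5.3% as lower. An unadjusted p under 0.05 was reached by 6 of the 8 and by 24% of all genes, and the libraries did not overlap in 6 of the 8 and in 30.5% of all genes. This comparison shares the Control libraries with that of LPS with Control, so the values stand side by side and are not separate evidence. The all-gene count of 1143 fell to 642 when Control replicate 3 was left out and to 735, 663 and 692 for LPS+Pilo replicates 1, 2 and 3, and rose to 1726 (736 higher, 990 lower) under quantile normalization, while the AP-1 count was 4 or 5 in every alternative. Fosl1 was at 2.17 ± 0.18 (limma, adjusted p = 6.29e-05), Junb at 0.75 ± 0.12 (0.00410), Jund at 0.75 ± 0.11 (0.00280) and Maff at 0.62 ± 0.11 (0.00688), and these 4 kept their calls in all 16 alternatives. Fosl2 passed here at 0.83 ± 0.19 (adjusted p = 0.0236), although the LPS+Pilo and LPS libraries did not differ in Fosl2 beyond their spread. Its call was lost without Control replicate 2 (0.0669), Control replicate 3 (0.0913), LPS+Pilo replicate 2 (0.10) or LPS+Pilo replicate 3 (0.0740) and with no filter on low values (0.0581), in a range of 0.00947 to 0.10. Mafk (0.36 ± 0.13, adjusted p = 0.119), Fos (0.43 ± 0.29, 0.424) and Jun (0.11 ± 0.17, 0.752) did not pass.

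The order of the genes by level shifted accordingly. In LPS, Jund (447 ± 43.8 TPM) and Junb (126 ± 22.8) again led without overlap. Jun (23.8 ± 5.52), Fosl1 (20.2 ± 1.54) and Maff (18.7 ± 1.67) came next and overlapped, so Fosl1, a place below Mafk in Control, stood level with Jun in LPS. In LPS+Pilo, Fosl1 (22.0 ± 4.66), Maff (20.6 ± 1.69) and Jun (20.3 ± 0.794) formed the same overlapping set. Mafk, Fosl2, Fos, Batf and Fosb followed in both treated groups, and of these only Fosl2 and Fos overlapped in LPS.

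As a share of the summed level of the 10 genes, Fosl1 went from 1.01% ± 0.162 in Control to 3.08% ± 0.140 in LPS and 3.20% ± 0.406 in LPS+Pilo. The share of Jun was 4.65% ± 0.541, 3.59% ± 0.503 and 2.98% ± 0.148 in the same order. Jund kept close to the same share, at 69.4% ± 1.25, 68.1% ± 1.43 and 69.3% ± 1.73. The summed level averaged 404 ± 32.1 TPM for Control, 657 ± 78.6 TPM under LPS and 682 ± 58.1 TPM with Pilo added. RNA shares do not give the composition of AP-1 dimers, which depends on protein levels and phosphorylation that were not measured.

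The LPS libraries differed among themselves across the whole set. LPS replicate 1 was the highest of its group in 7 of the 8 tested genes, and LPS replicate 3 was the lowest in 8 of 8. Their summed AP-1 levels were 741 TPM for replicate 1, 646 TPM for replicate 2 and 585 TPM for replicate 3. Within Control and within LPS, Fos and Jun put the libraries in the same order, whereas within LPS+Pilo, where both varied little, the order was reversed. In Control, replicate 1 was highest for both, and in LPS replicate 3 was lowest for both, at Fos and Jun levels inside the Control range. The second principal component of all tested genes (22% of the variance) separated some of the same libraries. Control replicate 1 was at 34 and LPS replicates 1 and 2 at 16 and 18.4, against -21.5 for LPS replicate 3 and -17.7 for Control replicate 2. Control replicate 3 lay at -2.29, with Fos at 2.29 TPM. LPS+Pilo replicate 1 lay at -3.3 although its Fos level of 4.43 TPM was close to the 4.44 TPM of Control replicate 1. The LPS+Pilo libraries lay close together, from -12 to -3.3, and so did their Fos and Jun levels. The part of this axis in the Fos and Jun values was not tested. Single libraries moved the Fos and Jun estimates. Without LPS replicate 3 the log2 fold change with LPS went from 0.47 to 0.78 for Fos and from 0.31 to 0.50 for Jun, and neither passed (limma, adjusted p = 0.0786 and 0.0573). Without LPS replicate 1 the estimates were 0.25 for Fos and 0.17 for Jun (adjusted p = 0.717 and 0.659), and without Control replicate 1 that of Fos was 0.73 (0.125). Against Control, the LPS+Pilo estimates without Control replicate 1 and without Control replicate 2 were 0.69 and 0.28 for Fos and 0.22 and 0.01 for Jun, where none passed.

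**Figure D3:**
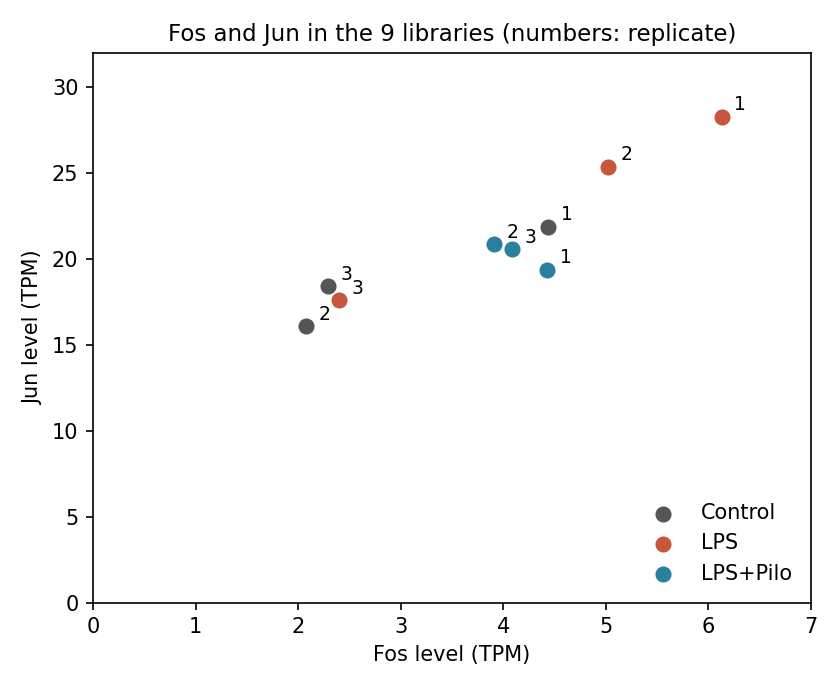
Fos level (horizontal axis, TPM) against Jun level (vertical axis, TPM) in the 9 libraries, coloured by group and numbered by replicate. LPS replicates 1 and 2 lie at the upper right, LPS replicate 3 lies beside Control replicates 2 and 3, and the 3 LPS+Pilo libraries sit between.

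The genes whose pattern over the 9 libraries was most like that of each AP-1 gene were taken by Pearson correlation of log2(TPM + 1) among 7531 genes with a symbol and a mean of at least 5 TPM. These correlations describe libraries that share groups and scaling, and the highest of many is always high. For Fosl1 they were Znrf1, a ubiquitin ligase gene (r = 0.994 over 9 libraries; 51.6, 98.6 and 104 TPM in Control, LPS and LPS+Pilo), and Cda, the cytidine deaminase gene (0.991; 3.02, 13.5 and 16.6 TPM). Junb was most like Cd14, which encodes a coreceptor for LPS (0.991; 131, 323 and 326 TPM), and Alas1, which encodes the first enzyme of heme synthesis (0.991). Jund was most like Ier3, an immediate-early gene (0.982; 73.1, 403 and 517 TPM), and Prss50 (0.982). Fosl2 was nearest to Csrnp1 (0.987) and Dmwd (0.971), Maff to Elk1 (0.990) and Vasp (0.986), and Mafk to Manbal (0.963) and Il4ra (0.951).

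Fos and Jun had other neighbours. Fos was most like Kansl2 (r = 0.997 over 9 libraries; 45.5, 52.2 and 51.2 TPM) and Cbx1 (0.992; 19.4, 24.1 and 23.1 TPM), which encode chromatin proteins. Jun was most like Tent4b (0.978; 6.69, 9.54 and 7.17 TPM) and Ryk (0.98; 11.2, 13.6 and 12.1 TPM). In each of these 4 genes LPS had the highest group mean.

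Of 9 tested ATF, JDP and BATF relatives, LPS gave 1 higher, 1 lower and 7 that did not pass, with a median of 0.26. Among all genes tested 4.12% were higher and 3.64% lower, with a median of 0.07. Atf5, a stress-response factor gene, rose from 30.78, 28.16 and 27.04 TPM to 57.79, 49.75 and 45.56 TPM (0.81 ± 0.11; limma, adjusted p = 0.00196), and it was called in all 16 alternatives. Batf3, which encodes a BATF relative needed for a type of dendritic cell, went the other way, from 46.85, 46.28 and 47.08 TPM to 31.01, 33.12 and 35.17 TPM (-0.49 ± 0.09, adjusted p = 0.0128). The Batf3 call was lost without Control replicate 3 (0.0628), LPS replicate 1 (0.0523) or LPS replicate 2 (0.0519), in a range of 0.0122 to 0.0628. Atf3, a gene often induced together with Fos and Jun, was at a mean of 34.4 TPM in Control and 34.7 in LPS (0.01, adjusted p = 0.968). In LPS+Pilo with Control 2 were higher and 1 lower, beside 4.85% and 5.3% of all genes. These were Atf5 (0.69 ± 0.11, limma adjusted p = 0.00398), Batf3 (-0.45, adjusted p = 0.0142) and Atf4 (0.63, adjusted p = 0.0455). The call of Atf4, a factor of the integrated stress response, held in 7 of 16 alternatives (range 0.00992 to 0.154). For Atf4 it was lost without Control replicate 2 (0.123) or 3 (0.154), LPS replicate 2 (0.0661) or any LPS+Pilo library (0.148, 0.0538 and 0.140 for replicates 1, 2 and 3). The Atf4 call was also lost with no filter (0.114), with quantile normalization (0.0665) and without the variance trend (0.0687). For Batf3 the call was lost without Control replicate 3 (0.0628) or LPS+Pilo replicate 1 (0.0602) or 3 (0.0620) and, just, with median-ratio scaling.

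Among other MAF and cap'n'collar genes, Mafg, the third small MAF gene, had means of 10.6 TPM in Control and 12.3 TPM under LPS (0.21; limma, adjusted p = 0.482), and Nfe2l2, which encodes the small MAF partner NRF2, was at 39.3 and 38.6 TPM (0.00, adjusted p = 0.998).

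Of 19 tested genes of the MAP kinase cascade that leads to AP-1, LPS gave 1 higher, 0 lower and 18 that did not pass, with a median of 0.10. Among all genes tested 4.12% were higher and 3.64% lower, with a median of 0.07. The 1 higher gene of the cascade was Map3k8, whose product TPL2 links TLR signals to ERK. It was at 0.56, 0.40 and 0.74 TPM in Control and 2.14, 1.57 and 1.26 TPM in LPS (0.75 ± 0.17; limma, adjusted p = 0.0267), so it was admitted to the test by its treated libraries. The call was lost without Control replicate 2 (0.0903) or 3 (0.0567) or LPS replicate 1 (0.0933) or 2 (0.0703) and in the fit of the 2 groups alone (0.0719). The JNK genes Mapk8 and Mapk9 and the p38 gene Mapk14 did not pass (0.31, 0.36 and 0.00). Of 8 coactivator and protein turnover genes 1 was higher, beside the same 4.12% of all genes. This was Trib1 (0.85 ± 0.19, limma adjusted p = 0.0230), which encodes a pseudokinase adaptor of the ubiquitin ligase COP1. Trib1 missed the threshold without Control replicate 2 (0.0777) or 3 (0.0949) or LPS replicate 1 (0.0864) or 2 (0.0863), without the filter (0.0633) and in the fit of the 2 groups alone (0.0790). For LPS+Pilo with LPS 0 genes of the ATF, MAP kinase and coactivator lists passed, and 0 had an unadjusted p under 0.05 (limma). Among all genes these shares were 0.0444% and 6.76%.

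Factors that bind the Fos and Jun promoters were 12 in number, of which 0 passed with LPS (limma, 1 at an unadjusted p under 0.05) and 2 were higher in LPS+Pilo than in Control. Among all genes 7.76% were called with LPS and 22.7% had an unadjusted p under 0.05. In LPS+Pilo with Control 4.85% of all genes were called as higher. Crem, a cAMP-responsive gene of the CREB family, was at 2.85, 1.75 and 2.33 TPM in Control, 3.53, 2.51 and 3.13 TPM in LPS and 5.25, 4.92 and 5.17 TPM in LPS+Pilo. The LPS+Pilo libraries all lay above the LPS libraries, as the libraries of the groups did without overlap for 12.2% of all genes tested. The log2 fold change was 0.90 ± 0.17 against Control (limma, adjusted p = 0.00830, called in all 16 alternatives) and 0.60 ± 0.17 against LPS, which did not pass (limma, unadjusted p = 0.00516, adjusted p = 0.484). The other was Elk1, a ternary complex factor gene (0.36, adjusted p = 0.0455), whose call held in 3 of 16 alternatives (range 0.0316 to 0.166) and was lost without any 1 library but LPS replicate 3. Srf, whose product binds the serum response element of Fos, was at 50.2, 56.3 and 57.8 TPM in the 3 groups and did not pass in any comparison.

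Of 20 genes with AP-1 sites described in the literature, many of which NF-kB also binds, 15 were tested: LPS gave 8 higher, 1 lower and 6 that did not pass, with a median of 0.59. Among all genes tested 4.12% were higher and 3.64% lower, with a median of 0.07. Tnf (3.90), Ccl2 (3.66), Il6 (2.44), Ptgs2 (1.61), Spp1 (1.41), Plaur, the urokinase receptor gene (1.2), and Il1b (1.03) were among those higher. Plau, the urokinase gene, was the 1 lower (-0.55, limma adjusted p = 0.00442). Il6, Il1b and Ptgs2 were below 1 TPM in every Control library, so they were admitted to the test by their treated libraries. Ptgs2 was at 0.92, 0.58 and 0.73 TPM in Control and 6.22, 5.46 and 2.22 TPM in LPS. Il6 was listed at 0 in 2 Control libraries, and Il1b, at 0 to 0.37 TPM in Control and 1.08 to 1.49 TPM in LPS, lost its call with no filter (0.0803) and when any of 5 libraries was left out: Control 2 (0.105), Control 3 (0.138), LPS 1 (0.113), LPS 2 (0.106) and LPS+Pilo 3 (0.0546). Against LPS, LPS+Pilo gave 0 higher and 1 lower, again Plau, at 72.88, 78.00 and 77.67 TPM in LPS and 51.24, 46.07 and 46.50 TPM in LPS+Pilo (-0.66, adjusted p = 0.0482). That call was lost in 15 of 16 alternatives, holding only without Control replicate 1 (0.0455), with a highest adjusted p of 0.328 without LPS+Pilo replicate 3. In this comparison 0.0444% of all genes were called. Without adjustment 6 of the 15 had a p under 0.05 (limma), against 6.76% of all genes. The list was drawn up with earlier results of these data known, so its counts are a description.

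**Figure D4:**
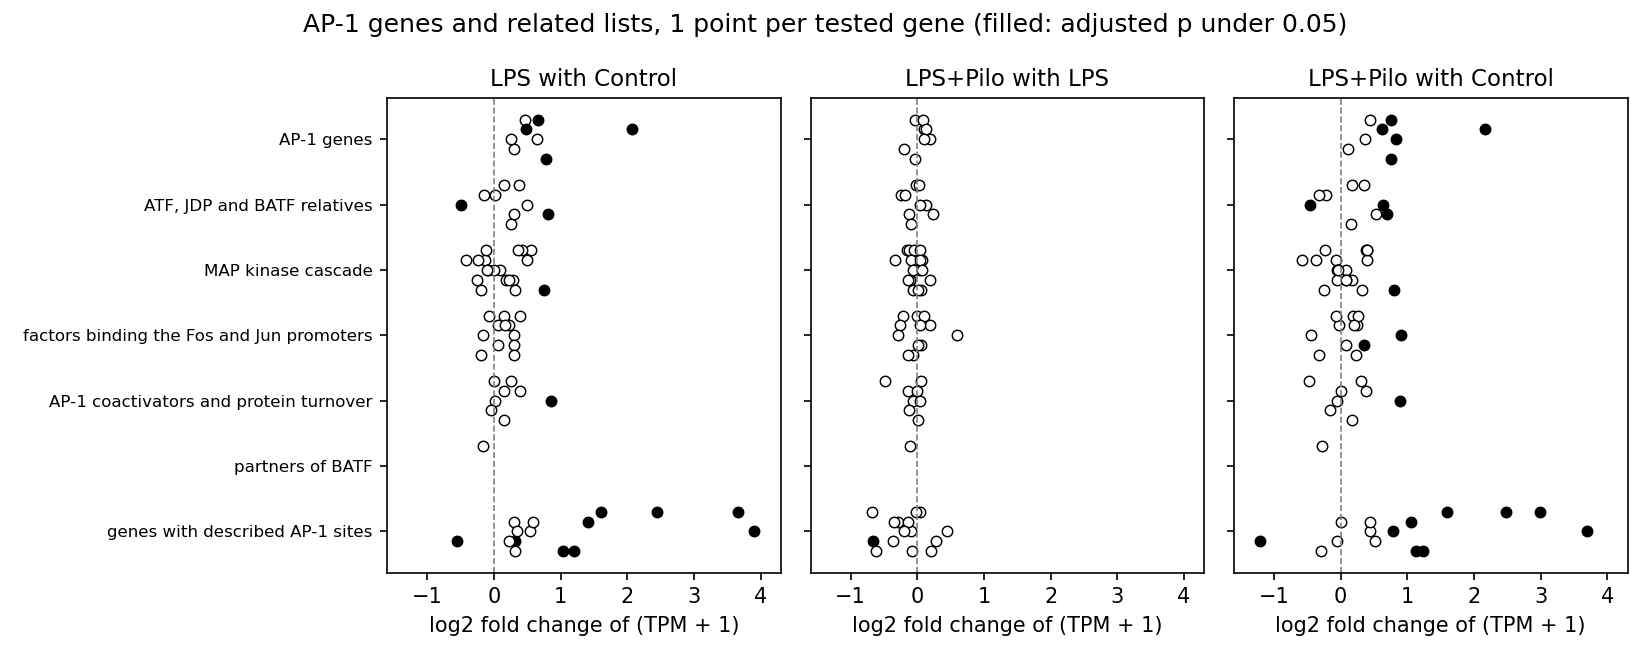
Log2 fold change of (TPM + 1) (horizontal axes) of each tested gene in the AP-1 set and in 6 related lists (vertical axis), in the 3 comparisons; filled points have an adjusted p under 0.05. In the middle panel, LPS+Pilo with LPS, 1 point is filled (Plau at -0.66), and the AP-1 points lie between -0.19 and 0.19.

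The genes lie on 7 chromosomes, and Fos and Batf are neighbours on chromosome 12 with 1 protein-coding gene between them, Jdp2, itself a basic leucine zipper gene that can repress AP-1. Jdp2 was at means of 26.2, 32.7 and 38.3 TPM in Control, LPS and LPS+Pilo and did not pass with LPS (0.29, adjusted p = 0.391). The 3 neighbours therefore stood at very different levels in the same cells. Fosl1 overlaps Ccdc85b on the opposite strand, with 2767 shared bases in the annotation, and the strand setting of the counting is not given. Ccdc85b was at 20.39, 22.89 and 21.06 TPM in Control and 25.28, 21.20 and 22.84 TPM in LPS (0.10 ± 0.13, limma adjusted p = 0.675). In LPS+Pilo it was at 20.25, 27.56 and 22.64 TPM, in the same order of replicates as Fosl1 at 17.65, 26.92 and 21.43 TPM. The part of this overlap in the Fosl1 values was not tested. Junb shares 351 bases with Prdx2 on the other strand, with means of 254 TPM for Control and 217 TPM under LPS (-0.23 ± 0.10, adjusted p = 0.209). The antisense entries over Jun (Junos, 0.21 to 0.96 TPM) and Jund (Gm11175, 0 to 1.59 TPM) were low.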

How the data were processed

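RNA from 9 libraries of BV2 cells was measured by RNA sequencing. The authors deposited 1 table of TPM per gene, rounded to 2 decimals, in which each library sums to 1000000 within rounding. The tools named per the submitters' processing notes are DESeq2 1.24.0, STAR 2.7.1a and fastp 0.19.5, with build GRCm39. For the program behind the TPM, the annotation and the strand setting, the sources used here give nothing. TPM hold no counts, so depth is unknown and the spread between libraries is the only precision. Symbols were matched by Ensembl identifier (52081 genes; GENCODE M21).

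Genes reaching 1 TPM in 3 or more libraries were fitted as log2(TPM + 1), which understates changes of low genes. The fit used all 9 libraries, group means, a variance trend (limma 3.58.1, R 4.3.3) and 6 residual degrees of freedom. Tests were two-sided, with Benjamini-Hochberg adjustment over all 11260 genes. Intervals are unadjusted 95% intervals. The script was tested on simulated data. Every AP-1 gene is named, with called members of 7 related lists (up to 8 per list; 1 result is not reported here) and the 2 most alike genes per member; Atf3, Mafg, Nfe2l2, Mapk8, Mapk9, Mapk14, Srf and Jdp2, the ratios and the overlapping genes were added after their values were seen. Members and lists were chosen with earlier results of these data known. Alternatives were another pseudocount (0.1), no filter, quantile and median-ratio scaling, no variance trend, the 2 groups alone, a replicate block and leaving out each library.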

Additional observations from a re-analysis of the deposited data

How the results depend on the processing

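Of 384 values of the 8 tested AP-1 genes (24 values under 16 alternatives), 364 kept their direction and side of the threshold, 11 no longer passed (6 for Maff with LPS and 5 for Fosl2 in LPS+Pilo with Control), 2 newly passed (Fosl2 with LPS) and 7 changed sign without passing. For 16 other genes of the related lists 77 of 768 values no longer passed, 2 newly passed and 16 changed sign without passing. Estimates that changed sign reached -0.32 (Il6 without LPS replicate 3) and 0.20 (Ptgs2 without LPS replicate 1). All 23 changes of sign were in LPS+Pilo with LPS, where the main estimates of these genes ran from -0.08 (Plaur) to 0.20 (Il1b). With quantile normalization these were Fos (adjusted p = 0.982) and Ptgs2 (0.958), with median-ratio scaling Fos (0.994), Junb (0.971) and Ptgs2 (0.982), and with a pseudocount of 0.1 Ptgs2 (1). The others came from leaving out 1 library, over which the adjusted p of this comparison ran up to 1 from 0.514 for Fos, 0.803 for Fosl1, 0.597 for Junb, 0.814 for Atf4, 0.708 for Batf3, 0.874 for Map3k8, 0.778 for Trib1, 0.472 for Il6, 0.440 for Ptgs2, 0.83 for Il1b and 0.508 for Plaur. Leaving out 1 library gave 3 to 5 AP-1 genes called for LPS with Control (main 4), 4 to 5 for LPS+Pilo with Control (main 5) and 0 to 0 for LPS+Pilo with LPS (main 0). Over all genes it gave 414 to 1020 for LPS with Control (main 874), 642 to 1286 for LPS+Pilo with Control (main 1143) and 0 to 6 for LPS+Pilo with LPS (main 5). Quantile normalization gave 1516, 1726 and 1 in that order, and fitting only the groups compared gave 483 for LPS with Control. For LPS+Pilo with LPS the count was 1 without the filter, 2 with median-ratio scaling, 3 without the variance trend and 1 with the replicate block. The cause of these shifts was not tested. Replicate numbers did not pair the libraries: deviations from the group means correlated between -0.23 and 0.17 for libraries of the same number and between -0.37 and 0.30 for others, and Control replicate 1 lay closer to LPS replicate 2 (0.27) than to LPS replicate 1 (0.17). With a replicate block 808, 1064 and 1 genes passed in the same order of comparisons, and 3, 5 and 0 AP-1 genes. Without read counts, low genes such as Batf, Fosb and Fos have an unknown counting error.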
